A study of Mus musculus with 22 samples.

Results

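Tight and gap junction genes of the mouse esophageal epithelium were followed across untreated control mice, mice with eosinophilic esophagitis (EoE) and mice with esophageal squamous cell carcinoma (ESCC). The 9 genes were chosen by name, from the rows of the count files that list 17541 genes. They are the claudins Cldn1, Cldn4 and Cldn7, occludin (Ocln), the scaffold Tjp1, the adhesion molecule F11r, and the connexins Gja1, Gjb2 and Gjb6. All 9 were listed in every file.

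Epithelium was peeled from the esophagus of C57BL6 mice, digested to single cells and sequenced by inDrop. In this droplet method every captured transcript carries a unique molecular identifier (UMI). The 6 control mice were untreated, and 3 were young (3 to 4 months) and 3 old (18 to 20 months). In the 4 EoE mice, MC903 and ovalbumin (OVA) were applied to the ears for 12 days, OVA was given by mouth from day 15, and the mice were euthanized on day 32. Of these, 2 were young (6 to 8 weeks) and 2 old (19 to 20 months). The 3 ESCC mice (8 to 10 months) drank the carcinogen 4NQO for 16 weeks and were followed without it for 8 weeks. There were 2 libraries per control or ESCC mouse and 1 per EoE mouse. Because age, number of libraries and condition differed together, and the labels name no sequencing batch, their parts in a difference cannot be told apart.

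Tight junctions seal the space between neighboring epithelial cells. Claudins and occludin are the membrane proteins of the sealing strands, F11r (junctional adhesion molecule A) is an immunoglobulin-type adhesion protein beside them, and Tjp1 (zonula occludens protein) ties the strands to actin. Gap junctions are channels between cells that are assembled from connexins and let ions and small molecules pass. In stratified squamous epithelium, Gja1 is the connexin found through most layers, while Gjb2 and Gjb6 belong to the group that is induced with differentiation and in proliferating or wounded epithelium.

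By the GENCODE annotation of GRCm38, all 9 are protein-coding genes. Gja1 (ENSMUSG00000050953) spans chr10:56377330-56402513 on the plus strand. Gjb2 (ENSMUSG00000046352, chr14:57098600-57104702) and Gjb6 (ENSMUSG00000040055, chr14:57123303-57133611) are neighbors on the minus strand of the same chromosome, 18600 bp apart. Tjp1 (ENSMUSG00000030516) lies on the minus strand at chr7:65296165-65527781 and F11r (ENSMUSG00000038235) on the plus strand at chr1:171437535-171464603. The claudins lie at chr16:26356642-26371841 (Cldn1, ENSMUSG00000022512, minus), chr5:134945119-134946934 (Cldn4, ENSMUSG00000047501, minus) and chr11:69964779-69967885 (Cldn7, ENSMUSG00000018569, plus). Ocln (ENSMUSG00000021638) lies on the minus strand at chr13:100496507-100552718.

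The 250 bases before the RefSeq start site (GRCm38.p6) are shown for Gja1 and Gjb2, the connexins whose levels moved in opposite directions within a cell class in ESCC. They run 5' to 3' on the strand of the gene, at chr10:56377050-56377299 (plus) and chr14:57104703-57104952 (minus). Capitals mark letters that match the AP-1 motif (letters TGANTCA), the GC box (letters GGGCGG), the box spelled CCAAT or the TATA box (letters TATAAA) on either strand.
Gja1: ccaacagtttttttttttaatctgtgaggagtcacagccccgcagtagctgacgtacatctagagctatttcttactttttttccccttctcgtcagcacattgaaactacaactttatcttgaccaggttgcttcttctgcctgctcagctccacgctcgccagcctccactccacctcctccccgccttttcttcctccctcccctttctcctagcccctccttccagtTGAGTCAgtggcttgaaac
Gjb2: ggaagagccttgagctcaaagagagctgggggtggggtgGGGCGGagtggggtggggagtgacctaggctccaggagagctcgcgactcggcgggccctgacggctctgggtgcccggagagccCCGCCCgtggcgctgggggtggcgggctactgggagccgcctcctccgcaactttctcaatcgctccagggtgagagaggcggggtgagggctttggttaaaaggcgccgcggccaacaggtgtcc
The Gja1 window held 1 match to TGANTCA and none to the other motifs. The Gjb2 window held 2 matches to GGGCGG, none to TGANTCA, and a GC content of 69.2% against 50.0% for Gja1. Among all 32851 promoter windows of this length, 6.75% held TGANTCA, 32.7% GGGCGG, 33.8% CCAAT and 12.4% TATAAA. Of the 9 genes, Cldn4 (2 matches) and F11r (1 match) also held TGANTCA in a window. A match is a description of the letters and not of a bound factor.

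Depth set what could be seen. Cells within 250 to 3500 genes and 100 to 9500 UMIs that were not called non-epithelial were used, which kept 1493 of 1500 control, 143 of 1500 EoE and 1469 of 1500 ESCC cells. A mouse was then represented by 111043 to 427752 UMIs in controls, 6245 to 41909 in EoE and 1231048 to 2100113 in ESCC. EoE mouse 11 was represented by 11 cells. These limits are the ones stated in the study's methods, and most of the deposited EoE cells lie outside them, so it is not known whether the EoE files were filtered in the same way. Values over all deposited cells (297425 UMIs in EoE) are therefore given beside the EoE values of a mouse. Values by class of cell were made within the limits alone. Levels are per-million counts (CPM), here UMIs of a gene over all UMIs used, whereas fold changes were fitted by edgeR with TMM scaling, whose factors were 0.831 to 0.880 in ESCC, 0.934 to 1.01 in controls and 1.01 to 1.57 in EoE. The libraries of a mouse shared 4 to 52 cell barcodes (239 in all, in 9 pairs of libraries), against at most 4 between libraries of different mice. The profiles of a shared barcode correlated at a median r of 0.731 across genes, against 0.362 for other cells of the same libraries, so some cells may be present in both libraries of a mouse. With each barcode counted once, the calls of Gja1 and Tjp1 in ESCC and of Gja1 and Gjb2 in EoE were kept, and Gjb6 could not be tested. The cells carried the squamous keratins: summed markers of the suprabasal layers (a list that holds the Krt4 and Krt13 genes) ranged from 28185 to 52183 CPM in controls, 98070 to 156605 in EoE and 6583 to 15582 in ESCC. Immune markers were at 28.4 to 73.6 CPM in controls, 127 to 236 in ESCC and 0 in EoE. Of 10 listed markers of eosinophils and mast cells, 6 were among the genes counted, and Siglecf, Epx, Prg2 and Il5ra were not. The 6 had 0 UMIs in control and EoE cells and 5 in ESCC cells. Cells called non-epithelial by the marker lists had already been left out, and EoE depth was low. No absence of immune cells from the EoE tissue is therefore read from these counts. Class shares differed as well: 39.7 to 64.3% of control cells, 0 to 22.8% of EoE cells and 65.3 to 69.2% of ESCC cells per mouse were basal by the classes described below. For sums over a mouse, fewer cells of a layer and less RNA per cell cannot be told apart.

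In control epithelium, the connexins Gja1 and Gjb2 were the members with the most UMIs, 4423 and 736 over the 6 mice. Gja1 ranged from 1684 CPM in mouse 3 to 2854 CPM in mouse 1, with a median of 2570 CPM (2405 ± 428, SD, n = 6). Gjb2 varied more between mice. It was at 172 and 180 CPM in mice 2 and 3 and at 353 to 616 CPM in the other 4 (375 ± 183, SD, n = 6). F11r stayed within 102 to 153 CPM (median 123 CPM). Tjp1 was at 45 and 53.5 CPM in mice 3 and 6 and at 95.8 to 99.4 CPM in the others. The remaining members were sparse, with 46 UMIs of Gjb6, 29 of Cldn4, 17 of Ocln, 14 of Cldn1 and 3 of Cldn7 in all control cells. Control mouse 3, with 70 cells, had no UMI of Cldn1, Cldn4 or Ocln, and 1 UMI each of Cldn7 and Gjb6. These counts do not show that a protein is scarce, since transcripts of a gene can be captured poorly.

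**Figure D1:**
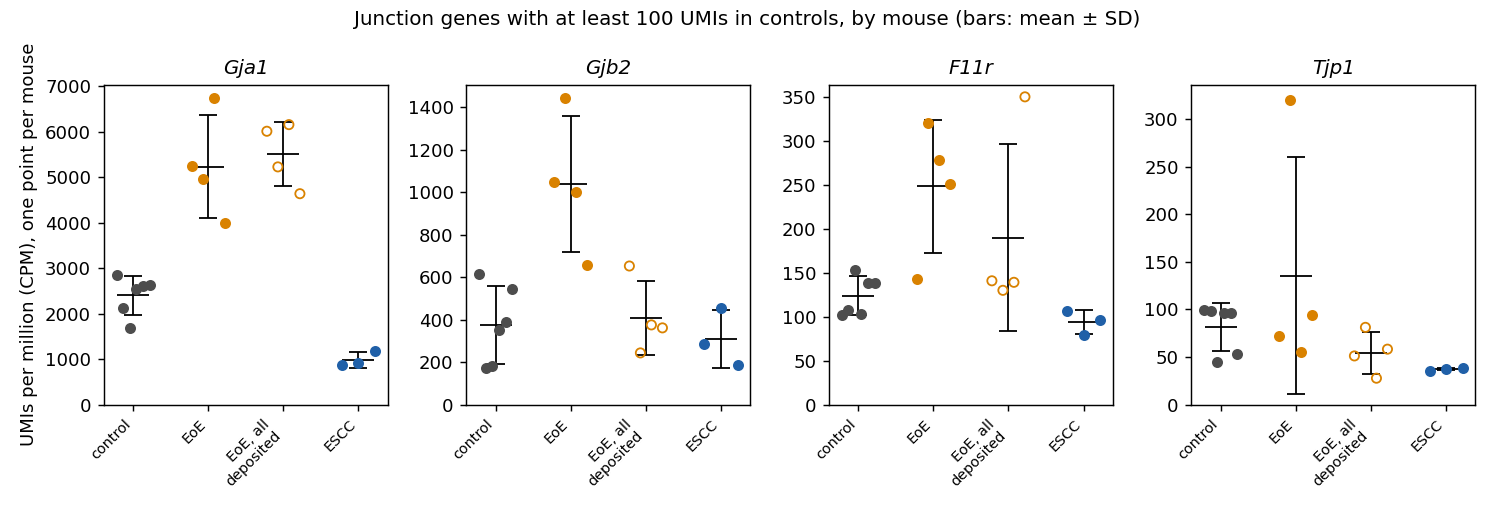
Levels of Gja1, Gjb2, F11r and Tjp1 in per-million counts (CPM, linear axes from 0), with 1 point per mouse, horizontal bars at the group mean and error bars of 1 SD. Open points are the EoE mice over all deposited cells. Gja1 was at 1684 to 2854 CPM in controls, above in all 4 EoE mice on both sets of cells and below in all 3 ESCC mice, whereas Gjb2 in ESCC (188 to 454 CPM) overlapped the controls.

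Cells were placed in 3 classes along the layers of the epithelium by control clusters that were ordered by Krt5 (basal keratin) and Krtdap (a differentiation gene). The junction genes were left out of the clustering. "Above the strip" is the class with the most Krtdap relative to Krt5. Levels between classes are a description, with no test. Gja1 was lowest in basal cells of every control mouse, at 932 to 1984 CPM, and reached 2614 to 3359 CPM in suprabasal cells and 2318 to 4223 CPM above the strip. The suprabasal level was above the basal in 6 of 6 mice, while the step from suprabasal to above the strip went up in 4 of 6, so these last classes overlapped. The rise across the layers was steeper for Gjb2. Basal cells held 15.5 to 33.3 CPM (17 UMIs in all), suprabasal cells 69.7 to 333 CPM and cells above the strip 869 to 1575 CPM, in this order in 6 of 6 mice and with no overlap between classes. Within a mouse, Gjb2 above the strip was 33.1 to 82.9 times the basal level, against 1.68 to 3.32 times for Gja1. With classes set by marker UMIs per cell, the mean Gjb2 level in controls became 32.1 CPM in basal and 293 CPM in suprabasal cells, against 22.2 and 167 CPM.

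Gjb6 and Cldn4 had most of their control UMIs in the same upper class. Of 46 UMIs of Gjb6, 40 fell above the strip, and of 29 UMIs of Cldn4, 26 did, with 0 Cldn4 UMIs in 713 basal cells. Cldn1 had 9 of its 14 UMIs there and Ocln 9 of 17. Tjp1 was at 31.6 to 90.1 CPM in basal cells, 34.0 to 105 CPM in suprabasal cells and 0 to 248 CPM above the strip, where control mouse 3 had no UMI in 6 cells. The level above the strip exceeded the basal level in 5 of 6 mice. F11r showed no such order: its level above the strip was below the basal level in 4 of 6 control mice and above it in 2.

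The genes whose levels across the 18 control sums (6 mice by 3 classes) followed Gjb2 most closely were Ephx3 (an epoxide hydrolase), Spink5 (a serine protease inhibitor of cornifying epithelium) and Creg1, with Pearson r of 0.976, 0.971 and 0.967 among 3326 genes. Gja1 was followed most closely by Sqle (squalene epoxidase of sterol synthesis), Lypd3 and Aldh3b2, at r of 0.947, 0.939 and 0.929. For Tjp1 they were Pafah1b1, Shoc2 and Wwc1 (r of 0.879, 0.873 and 0.859), and for F11r Cox7b, Bdp1 and Abhd17b (r of 0.754, 0.664 and 0.633). These values are descriptive, since the 18 sums share mice and depth.

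ESCC epithelium held less Gja1 and Tjp1 than control epithelium, while Gjb2 and F11r did not pass the test. Gja1 was at 863, 907 and 1179 CPM in ESCC mice 17F, 17M and 8M (983 ± 171, SD, n = 3), all below the lowest control at 1684 CPM. It fell by 1.09 on the log2 scale (SE 0.245, adjusted p = 0.000806 by edgeR's quasi-likelihood test). Tjp1 was at 35.7, 37.6 and 38.2 CPM, a narrow range that lay below the lowest control value of 45 CPM, and fell by 0.99 (SE 0.222, adjusted p = 0.000812 by edgeR). When all mice were thinned to equal UMIs, the Tjp1 value was -0.61 with an adjusted p of 0.334, while Gja1 stayed past the threshold. Gjb6 was at 2.31, 6.19 and 8.12 CPM against 4.91 to 37.4 CPM in controls. Its ranges overlapped through control mice 2 and 3, which held 1 UMI each, and the fitted change was -2.0 (SE 0.471, adjusted p = 0.00129 by edgeR). Gjb6 passed the filter on low counts through control and EoE mice, where it was higher, and not through ESCC mice, so the filter favoured a lower value. In the fit without a filter its value was also -2.0 (SE 0.425, adjusted p = 4.25e-05 by edgeR). In this and the other fits of ESCC or EoE without a filter, the p-values are those of a normal distribution. They rest on a spread pooled over genes, not on that of each gene between mice, and can be too small.

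Gjb2 and F11r overlapped the controls. Gjb2 was at 285, 454 and 188 CPM in ESCC mice 17F, 17M and 8M, within the control range of 172 to 616 CPM, with a log2 change of -0.13 (SE 0.279, 95% interval -0.68 to 0.41, adjusted p = 0.749 by edgeR). F11r was at 106, 79.0 and 95.9 CPM, of which 2 values lay below all controls, with a log2 change of -0.18 (95% interval -0.54 to 0.19, adjusted p = 0.501 by edgeR). Of the 5 members that passed the filter on low counts 3 were called, Gjb6 among them, where 34.4% of the 5863 genes tested were called (1053 higher and 966 lower). As the filter bore on Gjb6, nothing is read from this count. The other 4 members passed no filter in this comparison.

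**Figure D2:**
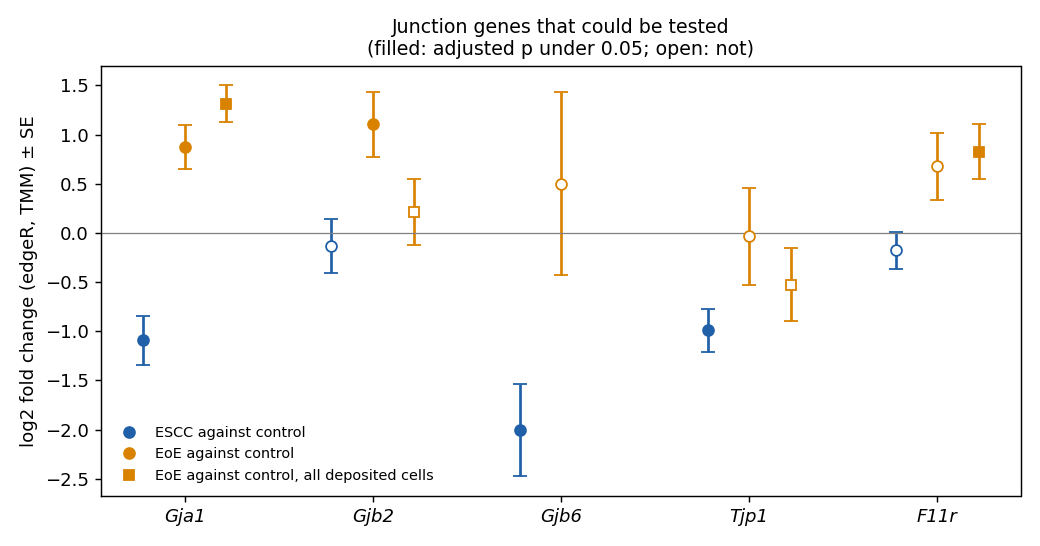
Fitted log2 fold changes against control (edgeR with TMM scaling) for the members that passed the filter on low counts, with bars of 1 SE; filled symbols have an adjusted p under 0.05. In ESCC the values of Gja1, Gjb6 and Tjp1 were -1.09, -2.0 and -0.99, while in EoE Gja1 was at 0.87 over cells within the limits and at 1.32 over all deposited cells.

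The claudins and occludin were scarce in every group and are described by summed counts. ESCC cells, with 5065663 UMIs, held 4 UMIs of Cldn4, against 29 in 1744511 control UMIs. The summed control level was 21.1 times that of ESCC (exact 95% interval 7.39 to 82.4, counting error only). Cldn4, a claudin of differentiating layers, was at 0, 1.43 and 0.812 CPM in the ESCC mice and at 0 to 31.5 CPM in the controls, where mouse 3 had no UMI, so the groups overlapped. Ocln had 6 UMIs in ESCC against 17 in controls, a control level 8.23 times higher (3.10 to 25.5), and Cldn1 10 against 14, 4.07 times higher (1.68 to 10.2). Cldn7 had 5 UMIs in ESCC and 3 in controls, 1.74 times higher in controls (0.271 to 8.95). Without a filter on low counts, edgeR called Cldn4 (log2 change -3.83, SE 0.664, adjusted p = 2.14e-07) and Ocln (-2.55, SE 0.745, adjusted p = 0.0055) as well as Gja1, Tjp1 and Gjb6, where 18.1% of the 15104 genes tested were called. The median gene was at 0.22 in that fit, against 0.01 with the filter. The limit given above for p-values without a filter applies to these calls. Cldn1 was not called (-1.68, adjusted p = 0.0882 by edgeR), nor was Cldn7 (-0.52, adjusted p = 0.781 by edgeR). In ESCC, 6 of 6 Ocln UMIs were in basal cells, which held 3201173 of the 5065663 UMIs, so no place in the layers is read from these few counts.

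**Figure D3:**
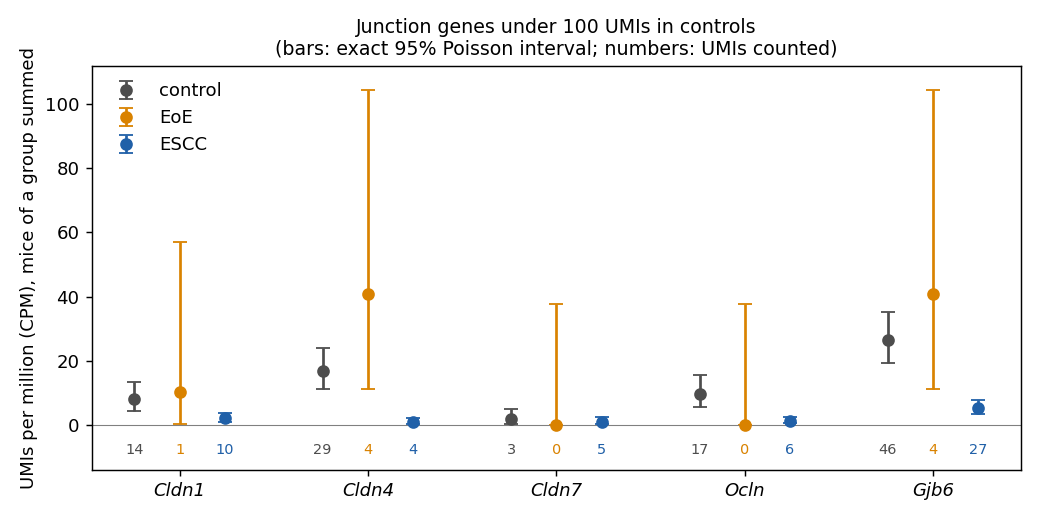
Levels of the 5 sparse members over the summed cells of a group, in per-million counts (CPM) with exact 95% Poisson intervals that cover counting error only; the number under each point is the UMIs counted. Cldn4 stood at 16.6 CPM in controls and 0.79 CPM in ESCC, and the EoE intervals reached as far as 105 CPM because 97975 UMIs lay behind them.

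Within classes of cells, Gja1 and Gjb2 differed in direction. In ESCC basal cells Gja1 was at 620, 706 and 883 CPM in mice 17F, 17M and 8M, all below the lowest control (932 CPM), and fell by 0.80 (SE 0.211, adjusted p = 0.00616 by edgeR). It was the 1 member called of the 2 that passed the filter in this class, where 31.2% of 3511 genes were called. Without ESCC mouse 17F the basal value was -0.66 with an adjusted p of 0.0561. In suprabasal cells it was at 1213, 1115 and 1376 CPM against 2614 to 3359 CPM in controls, and fell by 1.06 (SE 0.183, adjusted p = 6.44e-05 by edgeR). Above the strip it was at 1546, 1566 and 2056 CPM against 2318 to 4223 CPM, and fell by 0.74 (SE 0.237, adjusted p = 0.0216 by edgeR). That last call was lost without mouse 17F (-0.66, adjusted p = 0.122), without 17M (-0.69, adjusted p = 0.0937), with classes from marker UMIs (-0.59, adjusted p = 0.0744) and without a filter on low counts (-0.64, adjusted p = 0.151). From cells above the strip to basal cells, Gja1 differed by a mean of -1.22 on the log2(CPM + 10) scale in ESCC mice and -1.19 in control mice (exact two-sided permutation test, p = 1).

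Gjb2 was higher in the lower layers of ESCC epithelium. Basal cells of ESCC mice 17F, 17M and 8M held 106, 189 and 55.5 CPM (120, 244 and 43 UMIs), against 15.5 to 33.3 CPM in the 6 controls (1 to 5 UMIs each), with no overlap. Gjb2 did not pass the filter on low counts in basal cells. Without the filter its log2 change was 2.63 (SE 0.330, adjusted p = 1.25e-13 by edgeR), where 12.5% of 14209 genes were called. This p-value does not measure the spread of Gjb2 between mice, as stated above for fits without a filter. Suprabasal cells held 346, 608 and 220 CPM against 69.7 to 333 CPM, so the groups overlapped through ESCC mouse 8M and control mouse 6, and Gjb2 rose by 1.48 (SE 0.315, adjusted p = 0.000719 by edgeR). With Gja1, it made 2 members called of the 3 that passed the filter in suprabasal cells, where 33.3% of 2442 genes were called. Both calls held in the 12 alternatives run for this class. Among them were classes from marker UMIs, which kept the class of 70.9% of ESCC and 74.8% of control cells. By markers, 60 ESCC cells were suprabasal and 44 above the strip, against 352 and 132 in the main classes. The ESCC values by class therefore depend on how the layers were set. Above the strip Gjb2 was at 1187, 1674 and 650 CPM against 869 to 1575 CPM, ranges that overlapped on both sides (0.30, 95% interval -0.24 to 0.84, adjusted p = 0.457 by edgeR).

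**Figure D4:**
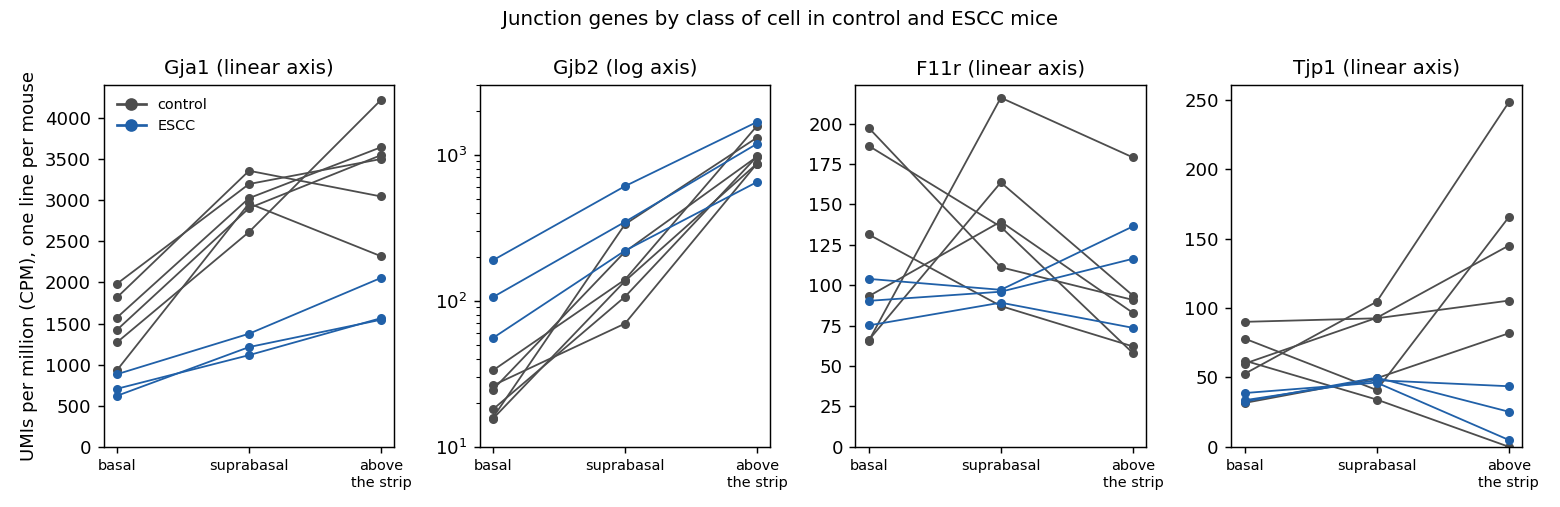
Levels by class of cell in per-million counts (CPM), with 1 line per mouse; Gjb2 is on a log axis and the other genes on linear axes from 0. The 3 ESCC lines lie below all 6 control lines for Gja1 in each class, and above them for Gjb2 in basal cells (55.5 to 189 CPM against 15.5 to 33.3 CPM).

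The basal to above-the-strip difference of Gjb2 averaged -3.26 (SD 0.158, n = 3) in ESCC mice and -5.09 (SD 0.365, n = 6) in controls on the log2(CPM + 10) scale. The difference between groups was 1.83, with all 3 ESCC mice above all controls (exact two-sided permutation test, p = 0.0238, the smallest that 3 against 6 mice allow). Adjusted over the 4 genes compared in this way the p was 0.0952, which does not pass the threshold. The values for F11r and Tjp1 were -0.54 (p = 0.429) and 1.01 (p = 0.357) by the same exact test.

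As a share of cells, with every cell thinned to 500 UMIs, 2.80 to 8.67% of ESCC basal cells held a Gjb2 UMI, against 0 to 2.22% of control basal cells. Before thinning the shares were 13.6 to 32.3% and 1.64 to 3.57%. Thinning kept all 985 ESCC and 693 of 713 control basal cells. Of 25 ESCC cells called non-epithelial, 3 held a Gjb2 UMI (12.0%, exact 95% interval 2.55 to 31.2%) at a median depth of 2097 UMIs, against 2960 in ESCC basal cells. The unthinned basal shares of mice 17F (25.9%) and 8M (13.6%) lay within this interval and that of 17M (32.3%) above it, so the shares of cells alone are not read as expression in basal cells. For comparison, Krtdap itself was at 289 to 1087 CPM in ESCC basal cells and 35.0 to 666 CPM in control basal cells. Gjb2 UMIs amounted to 15.4 to 19.2 per 100 Krtdap UMIs in ESCC basal cells and 5.23 to 16.1 above the strip. In mouse 8M the ratio was 19.2 in basal cells and 5.23 above the strip, while in 17F it was 15.4 and 16.1. In control basal cells it was at most 14.3 in mice 1, 3, 4 and 6. It was 37.5 and 75.0 in control mice 5 and 2, on 8 and 4 Krtdap UMIs. The ESCC basal ratios thus lay within the control range, which rests on 1 to 5 Gjb2 UMIs per mouse. Above the strip the control ratio was 5.15 to 8.27. Whether Gjb2 rose beyond Krtdap in ESCC basal cells was not tested. The part of free RNA in the basal Gjb2 level was not tested further.

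Gjb2 in ESCC was also followed against Krt16, a keratin of hyperproliferative epithelium, which had 1 UMI in each class of control cells. ESCC basal cells with at least 3 Krt16 UMIs held 277 CPM of Gjb2 in mouse 17F (26 cells) and 399 CPM in mouse 17M (55 cells). Basal cells without Krt16 held 84.0 and 110 CPM in these mice. Mouse 8M had 2 basal cells with at least 3 Krt16 UMIs, and its 191 basal cells without Krt16 held 55.2 CPM. These levels in basal cells without a Krt16 UMI were above the control maximum of 33.3 CPM in each ESCC mouse. A cell without a Krt16 UMI may hold the transcript uncaptured, and the part of Krt16 cells in the Gjb2 level was not tested. This split was chosen after the values were seen, and cells with Krt16 were deeper in 17F and 17M (medians of 4701 and 4134 UMIs against 2982.5 and 2461).

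Gjb2 made up more of the connexin UMIs in the lower layers of ESCC epithelium. Of the summed Gja1, Gjb2 and Gjb6 UMIs, Gjb2 made 7.49 to 17.6% in control mice and 24.8, 33.2 and 13.7% in ESCC mice 17F, 17M and 8M, so 2 of 3 ESCC mice lay above all controls. In basal cells the share was 0.858 to 2.03% in controls and 5.89 to 21.1% in ESCC, and in suprabasal cells 2.60 to 9.00% and 13.8 to 35.1%, with no overlap in either class. Above the strip, 17.0 to 30.6% in controls faced 23.7 to 51.1% in ESCC, with overlap. In EoE cells the share was 12.9 to 22.5%, and 4.45 to 9.75% over all deposited cells. These are shares of captured UMIs within a mouse, given without a test.

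**Figure D5:**
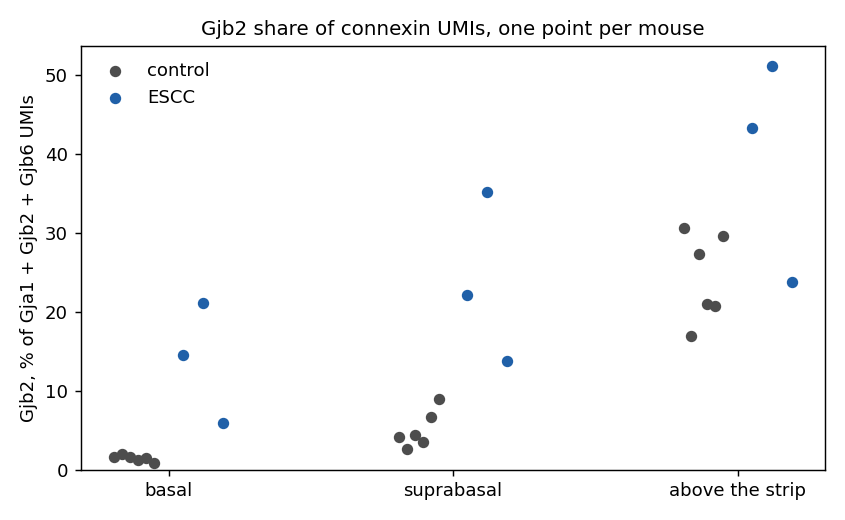
Share of Gjb2 among the UMIs of Gja1, Gjb2 and Gjb6 by class of cell, in percent, with 1 point per mouse. In basal cells the 6 control mice lie between 0.858 and 2.03% and the 3 ESCC mice between 5.89 and 21.1%.

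Tjp1 was called lower in ESCC in 1 class, above the strip. It was at 32.6, 38.7 and 33.6 CPM in ESCC basal cells (mice 17F, 17M and 8M) and at 31.6 to 90.1 CPM in control basal cells. Above the strip it was at 25.3, 4.91 and 43.6 CPM (5, 1 and 9 UMIs) against 0 to 248 CPM, and fell by 2.17 (SE 0.493, adjusted p = 0.00185 by edgeR). Control mouse 3, at 0 UMIs, overlapped the ESCC mice. Tjp1 passed the filter on low counts in this class through control mice and not through ESCC mice, so the filter favoured a lower value. Without a filter its value was -2.10 (SE 0.444, adjusted p = 8.79e-05 by edgeR), with the limit on such p-values given above. With Gja1, Tjp1 made 2 members called of the 4 that passed the filter above the strip, where 27.5% of 2897 genes were called. As the filter bore on Tjp1, nothing is read from this count. With classes from marker UMIs the Tjp1 value was -1.12 with an adjusted p of 0.168. Without a filter, 3 members were called above the strip, where 8.66% of 11893 genes were called. Immune markers, at 127 to 236 CPM in ESCC against 28.4 to 73.6 CPM in controls, moved with the condition, and their part in these results was not tested.

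EoE epithelium held more Gja1 than control epithelium, on both sets of cells. Gja1 was at 3986, 5249, 4964 and 6736 CPM in EoE mice 9, 10, 11 and 12 (5234 ± 1138, SD, n = 4), all above the highest control at 2854 CPM. Over all deposited cells the values were 4640, 6014, 5230 and 6159 CPM. The log2 change was 0.87 (SE 0.221, adjusted p = 0.00322 by edgeR) within the limits and 1.32 (SE 0.187, adjusted p = 2.28e-06 by edgeR) over all deposited cells. The call was lost without EoE mouse 12 (0.68, adjusted p = 0.0598) and without a filter on low counts (0.49, adjusted p = 0.187). The median gene tested had a log2 change of -0.74 within the limits and -0.31 over all deposited cells, so the values for single genes stand relative to that shift. Above the strip, where most of the EoE cells fell (80 of 143), Gja1 was at 3816 to 8214 CPM, against 2318 to 4223 CPM in controls, and the ranges overlapped.

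Gjb2 was called higher within the limits on cells but not over all deposited cells. It was at 659, 1050, 1441 and 1002 CPM in EoE mice 9, 10, 11 and 12, above the highest control at 616 CPM, and rose by 1.10 (SE 0.335, adjusted p = 0.0122 by edgeR). Over all deposited cells it was at 361, 653, 244 and 375 CPM, of which 1 value lay above the controls (0.21, SE 0.339, adjusted p = 0.624 by edgeR). The call within the limits was lost without EoE mouse 10 (0.94, adjusted p = 0.107). Of the 92 Gjb2 UMIs, 87 lay above the strip, where EoE mice held 747 to 1883 CPM and controls 869 to 1575 CPM. EoE cells lay above the strip in 50.9 to 72.7% of cells per mouse, against 8.57 to 29.7% in controls.

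F11r was at 251, 143, 320 and 278 CPM in EoE mice 9, 10, 11 and 12 (8, 6, 2 and 5 UMIs), above all controls in 3 of 4 mice (0.68, SE 0.342, adjusted p = 0.123 by edgeR). Over all deposited cells it was at 350, 141, 130 and 139 CPM, and rose by 0.82 (SE 0.278, adjusted p = 0.0160 by edgeR), although 3 of these 4 mice lay within the control range and mouse 9 alone lay above it. Tjp1 rested on 1 to 3 UMIs per EoE mouse (-0.04, 95% interval -1.0 to 0.93, adjusted p = 0.963 by edgeR). On all deposited cells it was at 58.3, 51.2, 81.2 and 27.8 CPM in mice 9, 10, 11 and 12, of which the last lay below all controls (-0.53, 95% interval -1.26 to 0.20, adjusted p = 0.243 by edgeR). Gjb6 rested on 4 UMIs in EoE (0.50, SE 0.928, adjusted p = 0.698 by edgeR) and on 6 over all deposited cells, where it could not be tested. Within the limits, 2 of the 5 members that passed the filter were called, both higher, where 34.4% of 5863 genes were called (557 higher and 1462 lower). Over all deposited cells 2 of 4 were called, both higher, where 50.7% of 5971 genes were called. Cldn7 and Ocln had 0 UMIs in 97975 EoE UMIs, which allows up to 30.6 CPM at a floor of 3 UMIs over the group, above the summed control levels of 1.72 and 9.74 CPM. They also had 0 UMIs over all deposited EoE cells, where the floor was 10.1 CPM. A loss of Cldn7 or Ocln was therefore not detectable at this depth. Cldn4 had 4 UMIs in EoE (40.8 CPM over the group) and 7 over all deposited cells (23.5 CPM), against 16.6 CPM in controls, and Cldn1 had 1 UMI on both sets of cells. The summed suprabasal markers moved with EoE, and their part in these results was not tested. Of 6 endothelial markers, Pecam1 had 12 UMIs in EoE cells and 3 in controls, while the other 5 (Cdh5, Kdr, Emcn, Plvap and Egfl7) had 0 in EoE.

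Set directly against each other, EoE epithelium held more Gja1 than ESCC epithelium by 1.97 on the log2 scale (SE 0.275, adjusted p = 1.04e-06 by edgeR), and by 2.46 over all deposited cells (adjusted p = 4.83e-09 by edgeR). Gjb2 was higher by 1.24 (SE 0.369, adjusted p = 0.00863 by edgeR) within the limits and was at 0.39 over all deposited cells (adjusted p = 0.386 by edgeR). F11r, at 0.85 (SE 0.350, adjusted p = 0.0493 by edgeR) within the limits and 1.03 over all deposited cells (adjusted p = 0.00391 by edgeR), lost its call in 11 of 15 alternatives. These were 3 members called of 5, where 41.7% of 5863 genes were called, and 2 members over all deposited cells, where 56.5% of 5971 genes were called. Tjp1 (0.96, adjusted p = 0.153 by edgeR) and Gjb6 (2.50, adjusted p = 0.0656 by edgeR) did not pass. The comparisons with control share the control mice, so their values are given side by side and not as independent evidence.

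Old and young control mice were compared to see whether age alone went with the junction genes. None of the 4 members tested was called by edgeR, none had an unadjusted p under 0.05, and DESeq2 called none, where 0.0971% of 5149 genes (5 genes) were called. Gja1 was at 1684 to 2604 CPM in the old mice 3, 4 and 5 and 2116 to 2854 CPM in the young mice 1, 2 and 6 (-0.11, 95% interval -0.55 to 0.33). Gjb2 was at 180 to 387 CPM and 172 to 616 CPM (-0.46, 95% interval -1.13 to 0.20). With age class (young or old) as a covariate, the EoE calls within the limits were kept for Gja1 (0.99, adjusted p = 0.00171 by edgeR) and Gjb2 (1.21, adjusted p = 0.000705 by edgeR). Young meant 6 to 8 weeks in EoE and 3 to 4 months in controls. The covariate could not adjust for that difference, so no conclusion on age is drawn from it.

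Other genes of the pathways were taken from lists of 48 further tight junction genes and 13 further gap junction genes present in the files. In ESCC, 15 tight junction genes could be tested, of which 5 were lower, 1 was higher and 9 did not pass (median log2 change -0.29, against 0.01 for all genes). These 6 of 15 stand beside the 34.4% of all genes that were called. The lower ones were the claudins Cldn10 (-4.08, SE 0.506) and Cldn17 (-3.65, SE 0.595), the plaque protein cingulin (Cgn, -1.84, SE 0.532), Tjap1 (-1.01, SE 0.259) and afadin (Afdn, -0.94, SE 0.218), which joins junctions to actin. The higher one was Mpp5 (0.78, SE 0.262), a polarity scaffold, whose call was lost in 4 alternatives, among them library totals without TMM (0.60, adjusted p = 0.0702 by edgeR). The call for Cgn was lost without ESCC mouse 17M (-1.53, adjusted p = 0.0502 by edgeR). Cldn10 had 10 UMIs in ESCC against 73 in controls, and Cldn17 8 against 46. Over the summed ESCC cells Cldn10, Cldn17, Cgn and Tjap1 were at 1.97, 1.58, 4.54 and 23.7 CPM. In controls they were at 41.8, 26.4, 19.5 and 55.0 CPM. They needed control or EoE mice to pass the filter on low counts, so, as for Gjb6, the filter favoured a lower value. Nothing is therefore read from the count of lower and higher genes in this list. Of the gap junction list, 2 genes could be tested, of which 1 was higher and 1 lower, beside the same 34.4%. The pannexin Panx1 rose by 0.87 (SE 0.278, adjusted p = 0.0144 by edgeR), a call that was lost without TMM (0.70, adjusted p = 0.0506 by edgeR). It was at 40.9 CPM over the ESCC cells and 24.6 CPM in controls. It may have passed the filter through ESCC mice, which would favour a higher value. Panx1 could be tested in 3 of the 9 fits that left out a mouse.

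In EoE, 5 of the 15 tight junction genes tested were higher, 3 were lower and 7 did not pass (median log2 change 0.34, against -0.74 for all genes). Among all 5863 genes 34.4% were called, 557 higher and 1462 lower. The higher ones included Cldn17 (2.02, SE 0.687), Cgn (2.02, SE 0.776), the angiomotin Amotl2 (1.64, SE 0.478) and the polarity protein Pard3 (1.06, SE 0.214). Cldn17 and Cgn rested on 12 and 9 UMIs in EoE and were at 26.4 and 19.5 CPM in the summed controls. They may have passed the filter on low counts through EoE mice, which would favour a higher value. Cldn17 could be tested in 4 of the 10 fits that left out a mouse. Nothing is therefore read from the count of higher and lower genes. The call for Cgn was lost in 9 alternatives and that for Amotl2 without EoE mouse 9 (0.67, adjusted p = 0.446 by edgeR). Over all deposited cells, 7 of 14 were higher and 2 lower, where 50.7% of all genes were called (1279 higher and 1751 lower). On those cells Amotl2 was at 1.71 (SE 0.327), Cgn at 1.53 (SE 0.602), Pard3 at 0.70 (SE 0.179), Prkci at -1.32 (SE 0.30) and Tjap1 at -2.87 (SE 0.734), each called by edgeR, while Cldn17 could not be tested. The lower ones within the limits were the polarity kinase Prkci (-1.93, SE 0.500), whose call was lost without EoE mouse 10 (-1.53, adjusted p = 0.0592 by edgeR), and Cxadr and Tjap1, which had 0 UMIs in EoE. With 0 UMIs in EoE, both passed the filter on low counts through control or ESCC mice, so the filter favoured a lower value. Their summed control levels were 1.78 (Cxadr) and 1.80 (Tjap1) times the floor of 3 UMIs over the EoE group. These ratios cover no spread between mice. Without EoE mouse 10 both calls were lost (adjusted p = 0.0634 and 0.0509 by edgeR). Over all deposited cells Cxadr was at 0.20 (adjusted p = 0.696 by edgeR). Panx1 was not called in EoE (-1.42, SE 1.16, adjusted p = 0.368 by edgeR), nor over all deposited cells (-0.43, adjusted p = 0.599 by edgeR). Mpp5, Afdn and Pard3 are named to complete the counts and were chosen after their values were seen.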

How the data were processed

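UMI counts per gene and cell were deposited as raw whole numbers, not normalized. Per the labels and methods, the authors extracted barcodes with UMI-tools 1.0.0, aligned reads with STAR 2.7.3 to GRCm38, assigned them with featureCounts and subset each condition to 1500 cells. Counts were summed per mouse, since a mouse is the replicate and its 2 libraries are not, and compared by edgeR 4.0.16 (quasi-likelihood test, TMM, filterByExpr, Benjamini-Hochberg adjustment over all genes tested, threshold 0.05), with all 3 groups in one fit. DESeq2 1.42.0, no filter, no TMM, thinned mice, doublet removal, age as a covariate, marker classes, all deposited cells and leaving out each mouse were alternatives. Counting each barcode once was added after seeing the data. Classes came from Leiden clusters of control cells (scanpy 1.11.5), without 70 junction genes. A cell was assigned by vote among the 15 closest controls of different mice. The 235 predicted doublets were kept in the main values. Poisson and binomial intervals (95%) cover counting error only. The genes named are the 9 members, the called genes of 2 lists of other junction genes (at most 8 a list, by fold), and the 3 genes that correlate best with each member of at least 100 control UMIs. The members and lists were chosen with earlier results of these data known. The pipelines were tested on simulated data, with 200 genes changed by 2 on the log2 scale, equally in both directions. For ESCC against control edgeR recovered 182 of them (97 higher and 85 lower). For EoE against control it recovered 99 (71 higher and 28 lower), so a lower level in EoE was often missed. Unchanged genes called by edgeR numbered 12 for EoE and 7 for ESCC, against 1 and 5 by DESeq2. Some called genes of these lists are not reported here.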

Additional observations from a re-analysis of the deposited data

Results flagged for a closer look

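Among the 6 control and the 4 EoE mice, 1 mouse lay far from the others in 3 of the 16 sets of values examined, where chance gives about 1 in 20. This rate need not hold for values that rest on 1 or 2 UMIs. Cldn1 was at 31.4 CPM in EoE mouse 9, from 1 UMI, and at 0 in the other EoE mice. Cldn7 was at 9.01 CPM in control mouse 3, also from 1 UMI, in the control mouse with the fewest cells. Tjp1 was at 320 CPM in EoE mouse 11, from 2 UMIs in 11 cells, and at 81.2 CPM in that mouse over all deposited cells. The difference of Gjb2 between basal cells and cells above the strip was larger in controls than in ESCC by 1.83 on the log2(CPM + 10) scale, with an exact permutation p of 0.0238 and an adjusted p of 0.0952. It was 2.19 with a pseudocount of 1 and 2.22 with classes from marker UMIs, alternatives chosen after the values were seen.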

How the results depend on the processing

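The number of members called was 3 in ESCC against control. It was 5 without a filter on low counts, 1 with mice thinned to equal UMIs, and 2 to 4 when single mice were left out. In EoE it was 2, and 1 without a filter, 1 with thinned mice and 1 to 2 with single mice left out (1 without EoE mouse 10 or 12). In EoE against ESCC it was 3, and 1 with thinned mice and 2 to 4 with single mice left out. In basal cells it was 1, and 2 without a filter, 2 with classes from marker UMIs and 0 to 2 with single mice left out (0 without ESCC mouse 17F). Above the strip it was 2, and 0 with classes from marker UMIs and 1 to 2 with single mice left out. In suprabasal cells it was 2 and between old and young controls 0 in the alternatives run. Among all genes, calls went from 2019 to 667 in ESCC with thinned mice. In EoE they went from 2019 to 3030 over all deposited cells, 76 with thinned mice and 1151 without mouse 10. In EoE against ESCC they went from 2445 to 677 with 2 groups in the fit, 107 with thinned mice and 1587 without EoE mouse 10. Between old and young controls they went from 5 to 24 without a filter and 0 to 8 with single mice left out. In basal cells they went from 1094 to 1778 without a filter, and with classes from marker UMIs from 813 to 234 in suprabasal cells and from 797 to 419 above the strip. The value of Cxadr in EoE reversed over all deposited cells (0.20). Beyond the smaller number of reads, mice or genes that an alternative itself brings, the cause was not tested. No paired analysis was possible because the groups share no replicate numbers. The EoE values rest on 143 cells and 97975 UMIs, which limits every sparse gene there.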
